A study of Mus musculus with 6 samples.

Results

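The nuclear-encoded subunit genes of the respiratory chain and of ATP synthase were described here in a mouse spermatogonial stem cell line. Members were the protein-coding genes with symbols made of Ndufa, Ndufb, Ndufc, Ndufs or Ndufv and a number, the symbols Sdha to Sdhd, and those that begin with Uqcr, with Cox and a digit from 4 to 8, or with Atp5. The rule uses no measured value. It found 84 of the 31384 genes in the count table, of which 36 belong by name to complex I, 4 to complex II, 8 to complex III, 18 to complex IV and 18 to complex V. The 84 entries carry 83 symbols, because Atp5o appears under 2 identifiers. The filter on low counts kept 81 of them for testing. The 3 untested entries were Cox6a2, Cox8b and the second Atp5o identifier, which had 0 counts in all 6 libraries. Atp5s is kept for its name and counted with the side stalk and membrane genes of complex V.

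Oxidative phosphorylation is carried out in the inner mitochondrial membrane. Complex I (NADH dehydrogenase) and complex II (succinate dehydrogenase) pass electrons to coenzyme Q, complex III (the cytochrome bc1 complex) passes them on to cytochrome c, and complex IV (cytochrome c oxidase) passes them to oxygen. Complexes I, III and IV pump protons, and complex V (ATP synthase) makes ATP as the protons flow back. Each complex except complex II also holds subunits encoded in mitochondrial DNA. The count table lists 0 mitochondrially encoded genes, so those subunits are not analysed here. Spermatogonial stem cells are the self-renewing germ cells of the testis, and GDNF is a growth factor on which their self-renewal in culture depends.

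There were 3 groups of 2 RNA-seq libraries, all collected on day 18 from a single cell line grown on mitomycin C-treated mouse embryonic fibroblast feeders in serum-containing medium with FGF2, EGF and LIF. Added GDNF was 10 ng/mL in PTC and absent from NTC and LOVA, and LOVA medium held 5 uM lovastatin, an inhibitor of HMG-CoA reductase, instead. A LOVA library therefore differs from a PTC library in both GDNF and lovastatin, and from an NTC library in lovastatin alone. Library names A and B are taken from column letters of the count table that appear in no sample label. Nothing in the labels says that they came from separate cultures, so the p-values measure the spread between these libraries, which may be technical.

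Total counts ranged from 12454671 to 22668087 per library. Markers of the cell types that the cultures could hold differed between the groups. Pan-germ-cell markers (19 genes) took 0.4905 and 0.491% of counts in PTC, 0.2698 and 0.178% in NTC, and 0.323 and 0.174% in LOVA. Feeder fibroblast markers (21 genes) took 0.162 and 0.658% of counts in PTC, 1.83 and 3.03% in NTC, and 1.63 and 3.04% in LOVA. PTC B stood apart from PTC A in that list. Macrophage markers (10 genes) took 0.0273 and 0.0233% of counts in PTC, 0.187 and 0.232% in NTC, and 0.0413 and 0.0488% in LOVA, while Sertoli, Leydig and endothelial markers stayed at or under 0.00346% in every library. In NTC against PTC, 12 of the 18 tested pan-germ-cell genes fell, and 14 of 21 feeder genes and 10 of 10 macrophage genes rose. Of all tested genes 12.9% fell and 21.5% rose. None of the genes of these 3 lists was at 0 in all libraries. In bulk RNA, fewer cells of a type and less RNA per cell cannot be told apart. The groups compared with PTC here also differ from it in these marker shares, and their part in the differences was not tested.

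Subunit genes as a whole did not move one way, and single subunits changed in both directions. Levels are given as CPM, counts per library brought to a common size with edgeR's TMM method, and differences as log2 fold changes with their standard error (SE). In NTC against PTC, 16 of the 81 tested members rose and 1 fell (edgeR quasi-likelihood test, Benjamini-Hochberg adjusted p under 0.05 over 16121 genes), against 21.5% of all tested genes higher and 12.9% lower. The members that rose were Ndufa1, Ndufa2, Ndufa3, Ndufa4, Ndufa6, Ndufa12, Ndufv3, Uqcr10, Uqcrq, Cox6b2, Cox6c, Cox7b, Atp5h, Atp5j, Atp5k and Atp5l, and the one that fell was Ndufv1. The share that rose was thus near that of all genes, and the share that fell was lower. The members' median log2 fold change was 0.17, beside -0.02 for all genes, and 54 members had a positive value (49.1% of all genes). The NTC and PTC libraries did not overlap for 42 members that were higher and 20 that were lower in NTC, where 39% and 38.5% of all genes did so. The count of higher members depended on single libraries: it was 0 without NTC B, 1 without PTC A and 5 without either PTC B or NTC A. The count of lower members was 0 without PTC A, PTC B or NTC B and 6 without either LOVA library. Scaled to the pan-germ-cell counts in place of TMM, which moved the median of all genes to 1.04, 56 members were higher and 0 lower, where 33.7% of all genes were higher and 0.248% lower. That scaling raises all genes by nearly the same amount, and 26 of the 27 members with a negative value under TMM had a positive one under it. Signs of members in comparisons with PTC are given under TMM.

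In LOVA against PTC, 6 members rose (Ndufa1, Ndufa4, Ndufa12, Cox6b2, Cox7b and Atp5j) and 3 fell (Ndufv1, Cox7a1 and Atp5b), where 19.8% of all tested genes were higher and 10.8% lower. Both shares were smaller among the members than among all genes. The members' median log2 fold change was 0.02, beside 0.00 for all genes. The libraries did not overlap for 26 members that were higher and 22 that were lower in LOVA, where 38.4% and 37.9% of all genes did so. Without PTC A or without LOVA B no member was called higher, without PTC B 2 were and without NTC A 3 were. Without PTC A, PTC B or LOVA B none was called lower, and without LOVA A 14 were. Scaled to the pan-germ-cell counts, 25 members were higher and 0 lower, with 28.3% and 0.205% of all genes. This comparison uses the same PTC libraries as the one of NTC with PTC, so the 2 are not independent.

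**Figure D1:**
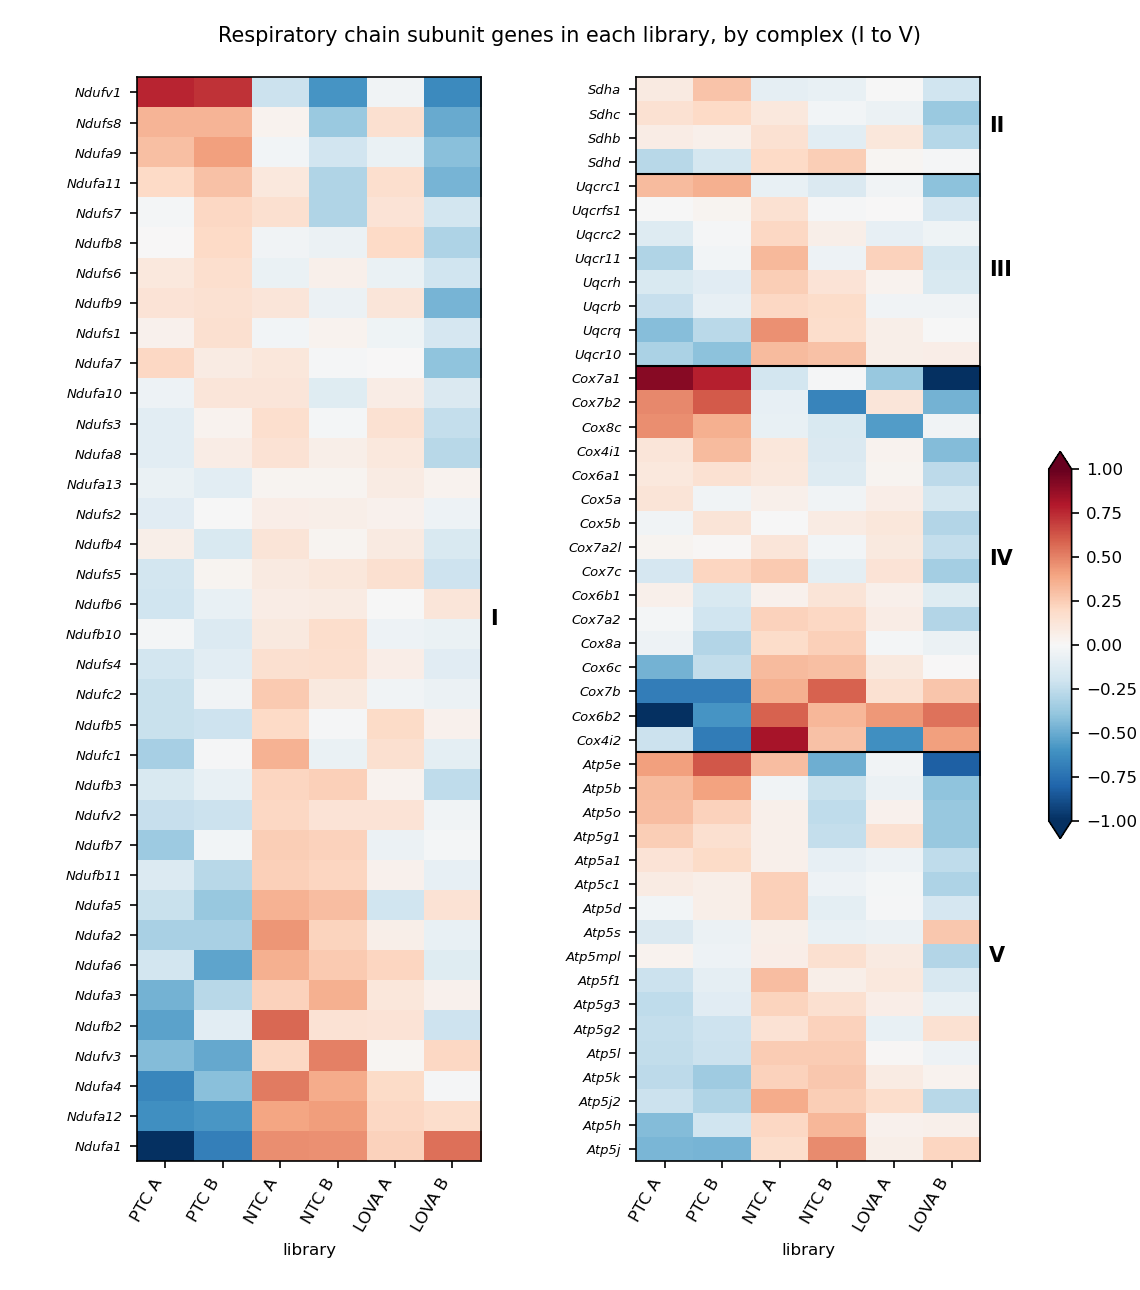
Level of each of the 81 tested subunit genes in the 6 libraries, as log2 of CPM + 0.5 minus the mean of that gene over the libraries, grouped by complex and ordered within it by the NTC minus PTC fold change. Colours end at -1 and 1. Ndufv1 at the top of complex I is high in both PTC libraries, and Ndufa12 and Ndufa1 at the bottom are low in both.

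Subunit genes together took 1.01 and 1.02% of all counts in PTC, 1.02 and 0.873% in NTC, and 0.974 and 0.747% in LOVA. LOVA B was the lowest library. The NTC libraries overlapped those of both other groups, while both LOVA libraries lay below both PTC libraries. The share of each complex within the summed subunit counts does not depend on how libraries are scaled. Complex V held the most, 40.6 and 40.5% in PTC, 38.4 and 37.5% in NTC, and 37.9 and 37.8% in LOVA. Its share was higher in both PTC libraries than in the 4 others. Complex I held 26.01 and 25.9% in PTC, 27.2 and 27.5% in NTC, and 27.6 and 27.5% in LOVA. Complex IV held 18.2 and 18.2% in PTC, 18.9 and 19.2% in NTC, and 19.2 and 18.7% in LOVA. Both were lowest in PTC. Complex I was counted by name and includes Ndufa4, since found as a subunit of complex IV, whose CPM was lowest in both PTC libraries. Shares of complexes I and IV, and of the accessory genes, were not computed with Ndufa4 moved. Complex III held 7.91 and 7.99% in PTC, 8.74 and 8.67% in NTC, and 8.25 and 8.77% in LOVA. Complex II, the smallest, held 7.26 and 7.49% in PTC, 6.79 and 7.096% in NTC, and 7.07 and 7.18% in LOVA, highest in PTC.

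Larger gaps between PTC and the other groups lay inside complexes I and V. The 5 genes of the F1 part of complex V are those of the catalytic head in the matrix and of the central stalk. They took 26.9 and 27.1% in PTC, 22.4 and 21.02% in NTC, and 22.3 and 21.6% in LOVA of subunit counts. The 13 genes of its side stalk and membrane part took 13.7 and 13.4% in PTC, 15.95 and 16.4% in NTC, and 15.6 and 16.2% in LOVA. Thus the F1 part was higher and the side stalk and membrane part lower in both PTC libraries than in all 4 others. In complex I the 7 core genes, conserved from bacteria, took 8.22 and 8.18% in PTC, 6.899 and 6.796% in NTC, and 7.51 and 7.23% in LOVA, and the 29 accessory genes took 17.8 and 17.7% in PTC, 20.3 and 20.7% in NTC, and 20.1 and 20.3% in LOVA. Without Ndufv1 the core share was 5.73 and 5.86% in PTC, 5.72 and 5.81% in NTC, and 6.08 and 6.11% in LOVA, and the PTC and NTC libraries overlapped, so the gap between them was not seen without that gene. Without Atp5b, the F1 share was 13.4 and 13.3% in PTC, 12.5 and 11.6% in NTC, and 11.9 and 11.9% in LOVA, still highest in PTC. These parts also differ in coding length. The core genes have 636 to 2181 coding bases and Atp5a1 and Atp5b 1659 and 1587, beside a median of 411 over tested members. For all protein-coding genes the median NTC minus PTC log2 fold change was 0.38 under 400 coding bases. It was 0.20 from 400 to 800 and -0.10 from 800 upward. The part of gene length in the shares was not tested. An exact two-sided permutation test of 2 libraries against 2 cannot give a p below 0.33, so none was run on these shares.

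**Figure D2:**
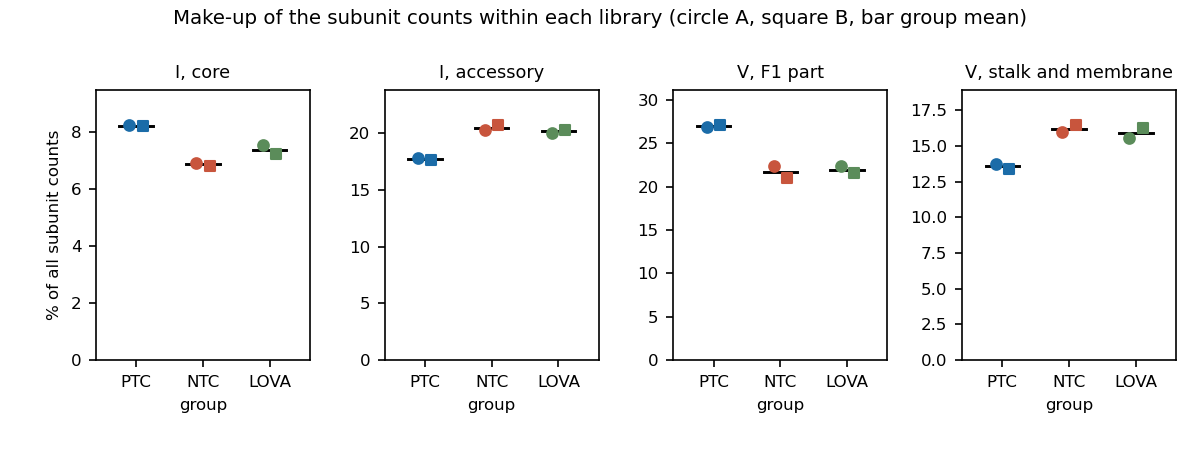
Share of the summed subunit counts held by the core and accessory genes of complex I and by the F1 part (head and central stalk) and the side stalk and membrane part of complex V, in each library (circles A, squares B, bars group means). Core and F1 points are highest in PTC, and accessory and side stalk and membrane points are lowest there.

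Promoter sequences are shown for Ndufv1 and Cox7b, called in opposite directions, for the pair Cox6b1 and Cox6b2, and for Sdha, Sdhd and Atp5h as examples of promoters that hold known binding motifs of mitochondrial gene regulators. The examples were chosen after the matches were seen. They come from RefSeq (build GRCm38.p6), are written 5′ to 3′ on the strand of the gene, and cover up to 150 bases before its start, ending before its first transcribed base in GENCODE M21. Capitals mark matches to the motifs of NRF1 and of the ETS factor GABP, factors known to drive many respiratory genes.
Ndufv1, chr19:4012807-4012905, minus strand: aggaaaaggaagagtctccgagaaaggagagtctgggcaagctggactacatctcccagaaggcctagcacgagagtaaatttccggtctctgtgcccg
Cox7b, chrX:106015550-106015699, plus strand: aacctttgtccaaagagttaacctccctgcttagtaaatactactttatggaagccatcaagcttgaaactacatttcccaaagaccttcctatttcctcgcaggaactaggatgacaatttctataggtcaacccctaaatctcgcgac
Cox6b1, chr7:30626152-30626264, minus strand: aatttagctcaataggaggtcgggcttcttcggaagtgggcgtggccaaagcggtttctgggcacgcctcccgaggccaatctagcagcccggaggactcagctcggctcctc
Cox6b2, chr7:4753095-4753244, minus strand: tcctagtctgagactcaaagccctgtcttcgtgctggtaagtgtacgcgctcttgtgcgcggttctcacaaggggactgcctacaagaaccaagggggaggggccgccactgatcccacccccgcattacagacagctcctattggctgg
Sdha, chr13:74350281-74350390, minus strand: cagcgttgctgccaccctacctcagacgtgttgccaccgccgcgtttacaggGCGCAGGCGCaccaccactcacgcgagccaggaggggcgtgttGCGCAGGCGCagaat
Sdhd, chr9:50603850-50603999, minus strand: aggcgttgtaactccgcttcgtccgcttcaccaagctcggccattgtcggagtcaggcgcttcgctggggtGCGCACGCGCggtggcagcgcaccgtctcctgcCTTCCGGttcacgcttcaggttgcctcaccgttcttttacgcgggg
Atp5h, chr11:115419963-115420069, minus strand: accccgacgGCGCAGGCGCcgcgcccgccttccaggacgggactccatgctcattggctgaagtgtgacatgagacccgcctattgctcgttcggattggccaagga
The windows of Ndufv1, Cox7b, Cox6b1 and Cox6b2 hold no match to these letters. Those of Sdha, Sdhd and Atp5h hold the NRF1 letters, Sdha at 2 places, and that of Sdhd also holds the GABP letters. Only Atp5h of these 3 was called higher in NTC. Further matches lay nearer the RefSeq start than the printed windows reach. Counted from that start, the GABP letters began at base -28 in Cox6b1 and -38 in Atp5h. Another match to the NRF1 letters began at base -10 in Sdha.

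Of the 83 member symbols, 68 had an entry, with 73 promoters of 250 bases before to 50 after the start. Both strands were searched. The NRF1 motif (GCGC, any base, then TGCGC) was in 24.7% of member promoters, in 8.74% of the promoters of all tested genes and in 4.60% of all promoters in the table. For the ETS/GABP motif (CCGGAAG) the shares were 21.9%, 15.6% and 8.86%, and for the YY1 motif (AAGATGGCG) 9.59%, 2.56% and 1.403%. The SP1 motif (GGGCGG) was in 39.7% of member promoters, in 59.1% of those of tested genes and in 35.7% of all promoters in the table. At least one of the NRF1, ETS/GABP and YY1 motifs was in 35 of the 73 member promoters. The ETS/GABP and YY1 letters can overlap at their shared AAG. These matches are a description of the sequence, and no binding was measured.

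Complex I had 7 members called higher and 1 lower of 36 in NTC against PTC, with a median log2 fold change of 0.22. Of all tested genes 21.5% were higher and 12.9% lower, so the share higher in complex I was near that of all genes. All 7 that rose are among the 29 accessory subunits by name, a share also near that of all genes. The core subunits had 0 higher and 1 lower of 7, too few genes to set against those shares. Ndufv1 (chr19:4007384-4012806, minus strand) encodes the core subunit that binds NADH and FMN and takes up the first electrons. It was at 236 and 229 CPM in PTC, 119.8 and 92.4 in NTC, and 136 and 89.3 in LOVA. Both PTC libraries lay far above the 4 others, and the NTC and LOVA libraries overlapped. Ndufv1 fell 2.19-fold in NTC relative to PTC (log2 fold change -1.13, SE 0.24, adjusted p = 0.0178) and likewise in LOVA relative to PTC (log2 fold change -1.05, SE 0.24, adjusted p = 0.0249). Scaled to the pan-germ-cell counts its value in NTC against PTC was -0.09 (adjusted p = 0.802) and in LOVA against PTC -0.13 (adjusted p = 0.737), so both calls ended. Its partners in the NADH-oxidising module were not called lower. Ndufv2 was higher in each NTC library than in either PTC library (log2 fold change 0.40, SE 0.16, adjusted p = 0.0911), and Ndufs1 had a log2 change of -0.10 (SE 0.15, adjusted p = 0.6498), neither called. Ndufv3, an accessory subunit of that module, rose in NTC with a log2 fold change of 0.85 (adjusted p = 0.0201).

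Ndufa1 (chrX:37187588-37191163, minus strand) encodes a small accessory subunit of the membrane arm that is needed for assembly. Its values were 7.84 and 10.02 CPM in PTC, 22.9 and 22.7 in NTC, and 19.4 and 24.3 in LOVA. No library of NTC or LOVA came down to the PTC range, and Ndufa1 rose 2.55-fold in NTC relative to PTC (log2 fold change 1.35, SE 0.25, adjusted p = 0.0135) and likewise in LOVA relative to PTC (log2 fold change 1.29, SE 0.25, adjusted p = 0.0191). Ndufa12, an accessory subunit of the matrix arm, was at 26.4 and 26.9 CPM in PTC, 53.6 and 54.3 in NTC, and 47.1 and 45.8 in LOVA, with a log2 change of 1.02 (SE 0.17, adjusted p = 0.0112) in NTC and 0.80 (SE 0.17, adjusted p = 0.02196) in LOVA against PTC. The libraries of a group lay close together and those of PTC were lowest. Ndufa4, named for complex I and since found as a subunit of cytochrome c oxidase, was at 72.99 and 85.9 CPM in PTC, 165 and 149 in NTC, and 131 and 114 in LOVA. Its log2 fold change against PTC was 0.98 (SE 0.18, adjusted p = 0.0127) in NTC and 0.62 (SE 0.17, adjusted p = 0.0381) in LOVA. By counts per kb of transcript, the most abundant genes counted by name in complex I were Ndufb9 with 251 CPM per kb and Ndufa4 with 225. Ndufb9 was at 192 and 194 CPM in PTC, 190.2 and 168 in NTC, and 189.9 and 126 in LOVA, lowest in LOVA B, with a log2 change of -0.11 (SE 0.22, adjusted p = 0.726) in NTC against PTC. Ndufa2 and Ndufa3, also called higher in NTC, share exon bases with genes of the other strand, and whether the counting used strand is not stated.

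In complex II 0 of 4 members were called in any comparison. Sdha and Sdhb, the catalytic flavoprotein and the iron-sulfur subunit, were the most abundant at 101 and 108 CPM per kb. Sdha was at 309 and 354 CPM in PTC, 273 and 275 in NTC, and 289 and 252 in LOVA, higher in both PTC libraries than in the others, with a log2 change of -0.27 (SE 0.16, adjusted p = 0.217) in NTC against PTC. Sdhb was at 129.6 and 127 CPM in PTC, 137 and 114 in NTC, and 133 and 101 in LOVA, and its groups overlapped. Sdhd, one of the membrane anchors, was at 96.5 and 103 CPM in PTC, 134 and 139 in NTC, and 118 and 116 in LOVA. It was lowest in PTC and highest in NTC with no overlap between any groups, and its log2 fold change in NTC against PTC was 0.45 (SE 0.15, adjusted p = 0.05695), just outside the threshold. Subunits of the same small complex thus had opposite signs, and no test was run of the difference between them.

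Complex III had 2 of 8 members called higher and 0 lower in NTC against PTC, beside 21.5% and 12.9% of all tested genes. Its median of 0.32 was the highest of the 5 complexes. Uqcr10 and Uqcrq, both small subunits outside the catalytic core, were the called genes. Uqcr10 was at 42.5 and 39.6 CPM in PTC, 66.2 and 65.00 in NTC, and 55.05 and 55.4 in LOVA, with a log2 change of 0.68 (SE 0.17, adjusted p = 0.02396). Uqcrq was at 50.9 and 56.6 CPM in PTC, 94.2 and 77.3 in NTC, and 71.4 and 68.4 in LOVA, with a log2 change of 0.67 (SE 0.18, adjusted p = 0.0303). In both genes the NTC libraries were highest and the PTC libraries lowest, without overlap. The most abundant genes per kb were Uqcrh, a hinge protein that contacts cytochrome c, at 259.7 CPM per kb, and Uqcrb at 141. Uqcrh was at 127 and 131 CPM in PTC, 168 and 155 in NTC, and 144 and 127 in LOVA, with a log2 change of 0.32 (SE 0.16, adjusted p = 0.146) in NTC against PTC. Uqcrb was at 63.6 and 70.8 CPM in PTC, 86.4 and 84.98 in NTC, and 72.9 and 72.8 in LOVA, with a log2 change of 0.35 (SE 0.16, adjusted p = 0.127). Uqcrc1, a large core protein, was the member of complex III with a negative value, a log2 change of -0.45 (SE 0.18, adjusted p = 0.0897).

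Complex IV had 3 of 16 tested members called higher and 0 lower in NTC against PTC, beside 21.5% and 12.9% of all tested genes. Its median was 0.04. In LOVA against PTC 2 members were higher and 1 lower, beside 19.8% and 10.8% of all tested genes. Cox7b (chrX:106015700-106022450, plus strand), a small subunit needed for assembly of the enzyme, had the smallest adjusted p of all members. It was at 39.7 and 39.7 CPM in PTC, 82.7 and 97.2 in NTC, and 71.4 and 78.3 in LOVA. All NTC and LOVA libraries were well above both PTC libraries, and Cox7b rose 2.26-fold in NTC relative to PTC (log2 fold change 1.18, SE 0.18, adjusted p = 0.00971) and likewise in LOVA relative to PTC (log2 fold change 0.91, SE 0.17, adjusted p = 0.0184). Cox6c was at 93.3 and 109 CPM in PTC, 162 and 160.1 in NTC, and 139 and 131 in LOVA, with a log2 change of 0.67 (SE 0.16, adjusted p = 0.0236) in NTC against PTC, and it overlaps an exon of a gene on the other strand. The most abundant genes per kb were Cox4i1 at 545 CPM per kb and Cox6a1 at 308. Cox4i1, a regulatory subunit, was at 441 and 504 CPM in PTC, 438 and 366 in NTC, and 416 and 301 in LOVA, with a log2 change of -0.23 (SE 0.21, adjusted p = 0.409). Cox6a1 was at 188 and 194 CPM in PTC, 189 and 159.6 in NTC, and 178 and 146 in LOVA, with a log2 change of -0.13 (SE 0.18, adjusted p = 0.582). LOVA B was the lowest library for both.

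Several complex IV subunits exist as a widely expressed form and a form of testis, muscle or lung, and the share of the latter within a library does not depend on scaling. Cox6b2, a testis form of Cox6b1, took 2.82% (2.198 to 3.55%) and 5.41% (4.65 to 6.25%) in PTC, 10.5% (9.25 to 11.9%) and 8.45% (7.42 to 9.57%) in NTC, and 9.44% (8.28 to 10.7%) and 11.3% (9.86 to 12.9%) in LOVA (exact 95% binomial intervals, counting error only) of the counts of the pair. The PTC libraries were lowest, with A below B. Cox6b2 (chr7:4751792-4753094, minus strand) was at 4.33 and 7.42 CPM in PTC, 17.4 and 14.5 in NTC, and 15.6 and 16.9 in LOVA, and it rose 2.702-fold in NTC relative to PTC (log2 fold change 1.43, SE 0.33, adjusted p = 0.0206) and likewise in LOVA relative to PTC (log2 fold change 1.46, SE 0.33, adjusted p = 0.0238). Cox6b1 was at 149 and 129.7 CPM in PTC, 148 and 157 in NTC, and 149.5 and 132 in LOVA, with overlapping groups and a log2 change of 0.13 (SE 0.16, adjusted p = 0.5605) in NTC against PTC. The other testis forms lay the opposite way.

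Cox7b2, a testis form of Cox7b, took 29.5% (26.5 to 32.6%) and 31.5% (29.1 to 34.1%) in PTC, 11.8% (10.02 to 13.8%) and 6.98% (5.78 to 8.33%) in NTC, and 15.3% (13.3 to 17.5%) and 9.63% (7.88 to 11.6%) in LOVA of the pair. Both PTC libraries had a larger share than the 4 others, and the intervals of PTC did not meet the others. Cox7b2 itself was at 16.6 and 18.3 CPM in PTC, 11.1 and 7.29 in NTC, and 12.9 and 8.34 in LOVA, with a log2 change of -0.93 (SE 0.33, adjusted p = 0.0688) in NTC against PTC, so the called part of the change in share was the rise of Cox7b. Cox7a1, the form of heart and skeletal muscle, took 11.5% (9.91 to 13.2%) and 11.8% (10.4 to 13.3%) in PTC, 4.59% (3.53 to 5.86%) and 5.29% (4.25 to 6.49%) in NTC, and 4.44% (3.399 to 5.69%) and 3.22% (2.13 to 4.65%) in LOVA of its pair with Cox7a2. Cox7a1 was at 10.97 and 9.97 CPM in PTC, 4.86 and 5.55 in NTC, and 4.202 and 2.32 in LOVA. It fell in LOVA against PTC (log2 fold change -1.67, SE 0.38, adjusted p = 0.0239), while its log2 fold change in NTC against PTC was -1.01 (SE 0.37, adjusted p = 0.0702). Cox7a2, the widely expressed form, was at 84.8 and 74.6 CPM in PTC, 101 and 99.4 in NTC, and 90.4 and 69.8 in LOVA, with a log2 change of 0.33 (SE 0.19, adjusted p = 0.204) in NTC against PTC.

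Cox8c, another testis form, took 2.01% (1.499 to 2.65%) and 2.17% (1.69 to 2.75%) in PTC, 1.099% (0.713 to 1.62%) and 0.998% (0.669 to 1.43%) in NTC, and 0.8197% (0.486 to 1.29%) and 1.34% (0.862 to 1.99%) in LOVA of the Cox8 counts, a small share that was highest in PTC. Its level was 3.14 and 2.86 CPM in PTC, 1.99 and 1.87 in NTC, and 1.28 and 2.06 in LOVA, with a log2 change of -0.63 (SE 0.44, adjusted p = 0.2899) in NTC against PTC. Cox8a, the widely expressed form, was at 153 and 128 CPM in PTC, 179 and 186 in NTC, and 155 and 152 in LOVA, with a log2 change of 0.38 (SE 0.16, adjusted p = 0.107). Cox8b, Cox6a2 and Cox4i2, forms of muscle or lung, had few counts. Cox8b had 2 counts in PTC B and 0 in the other 5 libraries, Cox6a2 took at most 0.263% of its pair, and Cox4i2 at most 0.326%. Cox4i2 was at 0.439 and 0.1705 CPM in PTC, 1.43 and 0.838 in NTC, and 0.214 and 0.946 in LOVA, and its large but uncertain log2 fold change of 1.92 in NTC against PTC (SE 0.92) was not called (adjusted p = 0.139).

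**Figure D3:**
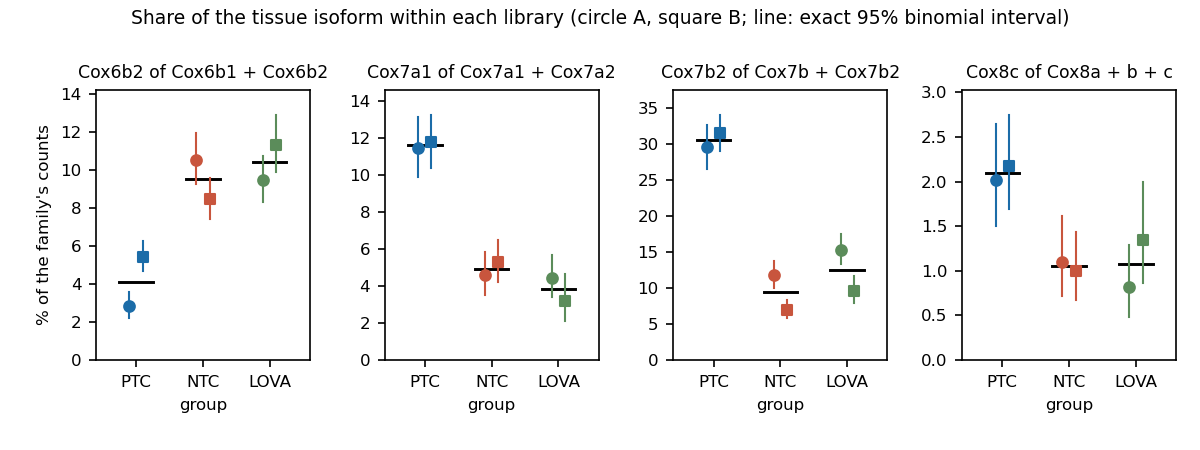
Share of counts taken by the tissue form of 4 complex IV subunits within its family, in each library (circles A, squares B; vertical lines exact 95% binomial intervals, bars group means). Cox6b2 is lowest in PTC, whereas Cox7a1, Cox7b2 and Cox8c are highest there.

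Complex V had 4 of 17 members called higher and 0 lower in NTC against PTC, beside 21.5% and 12.9% of all tested genes. Its median was 0.12. The 4 called members are all among the 12 tested genes of the side stalk or of the membrane sector. The F1 part has 5 genes, too few to set against those shares. Atp5j, the coupling factor F6 of the side stalk, was at 60.1 and 59.96 CPM in PTC, 93.5 and 115 in NTC, and 86.1 and 96.1 in LOVA, with a log2 change of 0.80 (SE 0.18, adjusted p = 0.0197) in NTC and 0.60 (SE 0.18, adjusted p = 0.0435) in LOVA against PTC. Atp5h, subunit d of the same stalk, was at 89.5 and 105 CPM in PTC, 140.3 and 153 in NTC, and 125 and 125 in LOVA, with a log2 change of 0.59 (SE 0.16, adjusted p = 0.0337) in NTC against PTC. Atp5k, the membrane subunit e, was at 39.3 and 36.6 CPM in PTC, 55.4 and 56.9 in NTC, and 49.8 and 48.3 in LOVA, with a log2 change of 0.57 (SE 0.17, adjusted p = 0.0409). In these 3 genes every NTC and LOVA library was above both PTC libraries. Atp5l, subunit g, had a log2 change of 0.49 (SE 0.15, adjusted p = 0.0431) in NTC against PTC. Atp5k and Atp5l have named pseudogenes, and Atp5j and Atp5l share exon bases with a gene of the other strand.

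In the F1 part the alpha and beta subunit genes had negative values in both comparisons with PTC under TMM scaling. Atp5b, the catalytic beta subunit and with 547 CPM per kb one of the most abundant members, was at 1278 and 1359 CPM in PTC, 1006 and 881 in NTC, and 989 and 777 in LOVA. Both PTC libraries were highest, and Atp5b fell in LOVA against PTC (log2 fold change -0.58, SE 0.18, adjusted p = 0.0486), with a log2 change of -0.48 (SE 0.18, adjusted p = 0.0736) in NTC against PTC. Scaled to the pan-germ-cell counts its LOVA minus PTC value turned to 0.38 and was not called. Atp5a1, the alpha subunit, was at 761 and 791 CPM in PTC, 715 and 653 in NTC, and 669 and 581 in LOVA, with a log2 change of -0.18 (SE 0.16, adjusted p = 0.386) in NTC against PTC, again highest in PTC. Atp5e, the small epsilon subunit, had a log2 change of -0.56 (SE 0.34, adjusted p = 0.2304), and Atp5c1 and Atp5d, the gamma and delta subunits, were close to 0 with log2 fold changes of 0.03 and 0.06.

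The proton-carrying ring of complex V is built from subunit c, which is encoded by 3 genes with the same mature protein. Atp5g1 took 37.8% and 34.98% in PTC, 28.2% and 24.3% in NTC, and 32.2% and 24.5% in LOVA of the counts of the 3 genes. Its share was highest in both PTC libraries. The transcript of Atp5g1 is longer than those of Atp5g2 and Atp5g3. Per kb of transcript its share was 12.9 and 11.7% in PTC, 8.77 and 7.25% in NTC, and 10.5 and 7.31% in LOVA. Atp5g1 was at 137 and 129.7 CPM in PTC, 120.0 and 98.2 in NTC, and 128 and 89.00 in LOVA, with a log2 change of -0.29 (SE 0.22, adjusted p = 0.326) in NTC against PTC. Atp5g2 was at 98.1 and 100.2 CPM in PTC, 128 and 136 in NTC, and 110.0 and 129 in LOVA, with a log2 change of 0.41 (SE 0.16, adjusted p = 0.0863). Atp5g3 was at 128 and 141 CPM in PTC, 178 and 171 in NTC, and 159.9 and 145 in LOVA, with a log2 change of 0.37 (SE 0.16, adjusted p = 0.101). None of the 3 was called. Atp5g1 was lower and Atp5g2 and Atp5g3 higher in each NTC library than in either PTC library.

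**Figure D4:**
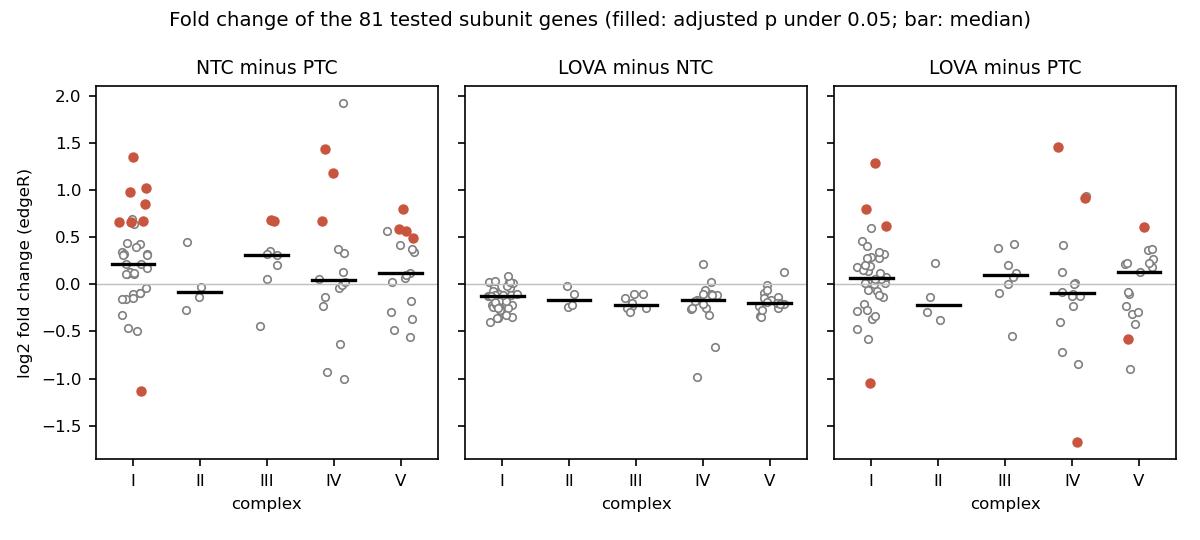
Log2 fold change of the 81 tested members by complex in the 3 comparisons. Filled points passed an adjusted p under 0.05 and black bars are medians. Called members lie on both sides of 0 in NTC and LOVA against PTC, and LOVA against NTC has none, with most points slightly under 0.

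Between LOVA and NTC, where lovastatin was the labelled difference, edgeR called 0 members and 0 of all 16121 genes. An unadjusted p under 0.05 was reached by 0 members and by 3.48% of all genes, and DESeq2 and limma-voom also called 0 members. Of the 81 members 72 were lower in LOVA, with a median of -0.18. Of all genes 49% were lower, and their median was 0.01. Also lower were 65 of 78 mitochondrial ribosome genes, 35 of 47 assembly factors and 11 of 13 coenzyme Q genes, lists described below. So were 8 of 8 ATP export genes, 4 of 5 carriers, 10 of 14 biogenesis genes and 9 of 16 tricarboxylic acid cycle genes. Protein-coding genes under 400 coding bases had a median of -0.17. The direction was thus not particular to the subunits. The LOVA libraries lay wholly under the NTC libraries in 34 members and wholly over them in 1, where 13% and 12.7% of all genes did so. The size of the members' shift rested on LOVA B: without that library their median was -0.06, and without LOVA A it was -0.26. Relative to the mean of the 6 libraries, the median member stood at -0.11 and -0.03 in PTC, 0.17 and 0.06 in NTC, and 0.06 and -0.15 in LOVA on the log2 scale. LOVA A was thus below NTC A and level with NTC B, and LOVA B was below all others. The summed share of macrophage markers also differed between these groups, though 0 of the 10 genes were called. Its part in the shift was not tested.

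The member with the smallest p in each complex had an interval that included 0. For Ndufa4 the log2 fold change in LOVA against NTC was -0.36 (95% interval -0.77 to 0.06, unadjusted p = 0.0798). It was -0.22 for Sdhd (-0.58 to 0.14), -0.30 for Uqcrq (-0.72 to 0.13) and -0.27 for Atp5l (-0.62 to 0.08). For Cox7a1 it was -0.67 with a wide interval of -1.56 to 0.23. These 5 adjusted p-values were 1. Ndufv1, the gene that fell without GDNF, was at 0.09 (-0.48 to 0.66), so no difference between lovastatin and no addition was detectable for it.

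The members are short genes, with a median coding length of 411 bases beside 1380 for all tested protein-coding genes, and the shorter of them tended to have higher values in NTC. Across the 81 members, coding length and the NTC minus PTC log2 fold change had Pearson's r of -0.31 and Spearman's rho of -0.36, and across 14791 protein-coding genes -0.10 and -0.14. For LOVA minus NTC the values were 0.27 and 0.39 across members and 0.18 and 0.30 across protein-coding genes. These are correlations across genes of the same libraries, which are not independent replicates. Under 400 coding bases, 13 of 39 members (33.3%) were called higher in NTC, and 33.2% of the 755 protein-coding genes of that length were. From 400 to 800 bases 2 of 28 members (7.14%), Ndufa12 and Atp5h, were called higher, with 28.1% of genes of that length. From 800 bases upward 1 of 14 members, Ndufv3, was called higher and 1, Ndufv1, lower, with 20.6% and 16.3% of all such genes. For LOVA against NTC, 2 of 39 members and 173 of 755 genes under 400 bases had a positive value, with medians of -0.23 and -0.17. In NTC against PTC the share of members called higher was thus near that of other genes under 400 bases and lower than theirs from 400 to 800.

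**Figure D5:**
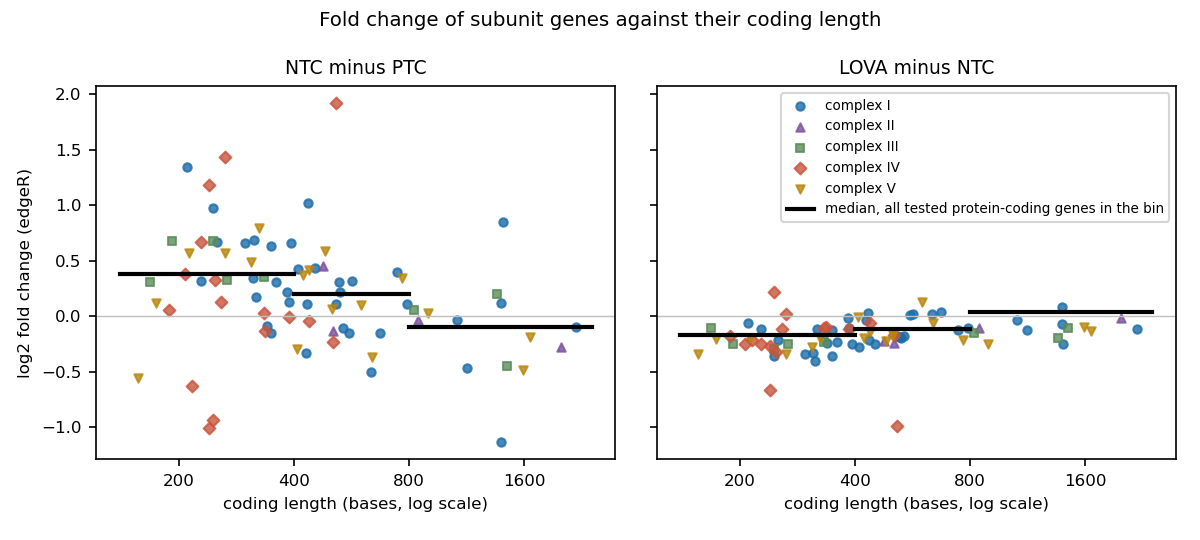
Log2 fold change of the members against coding length (log scale) in NTC against PTC and LOVA against NTC, with complexes marked by shape and colour. Black bars are medians of all tested protein-coding genes in 3 length bins, 0.38, 0.20 and -0.10 in NTC against PTC and -0.17, -0.11 and 0.04 in LOVA against NTC.

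Genes that serve the complexes without being subunits of them were described with lists chosen for their roles. Of 47 tested assembly factors, 11 rose and 2 fell in NTC against PTC (median 0.03) and 9 and 2 in LOVA against PTC. Of all tested genes 21.5% were higher and 12.9% lower in the comparison of NTC with PTC and 19.8% and 10.8% in that of LOVA with PTC, so the shares higher among assembly factors were near those of all genes. Pet100 and Cox20, chaperones of cytochrome c oxidase, had log2 fold changes of 2.05 (SE 0.29, adjusted p = 0.00931) and 1.86 (SE 0.36, adjusted p = 0.0139) in NTC against PTC. Ndufaf3, an assembly factor of complex I, had a log2 change of 1.80 (SE 0.44, adjusted p = 0.0236). Pet100 was at 3.07 and 3.07 CPM in PTC, 12.3 and 13.2 in NTC, and 8.403 and 9.98 in LOVA, and its groups did not overlap. Of 5 electron carriers 3 rose: Etfb with a log2 change of 1.38 (SE 0.19, adjusted p = 0.00892), Etfdh with 0.70 (SE 0.20, adjusted p = 0.0375) and Etfa with 0.60 (SE 0.18, adjusted p = 0.0439), all of the branch that feeds electrons from fatty acid oxidation to coenzyme Q. Etfb was at 20.8 and 24.4 CPM in PTC, 58.2 and 59.4 in NTC, and 50.8 and 58.3 in LOVA. Cycs and Cyct, the cytochrome c genes of that list, had negative values in NTC against PTC and were not called. Their log2 fold changes were -0.12 (SE 0.27, adjusted p = 0.762) and -0.49 (SE 0.33, adjusted p = 0.273).

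Of 8 genes of ATP export and coupling 5 rose and 0 fell in NTC against PTC, beside 21.5% and 12.9% of all tested genes. The median of the 8 was 0.82. Slc25a4, the ADP/ATP carrier of heart and muscle, was at 68.6 and 90.3 CPM in PTC, 315 and 390.2 in NTC, and 263 and 381 in LOVA, with a log2 change of 2.15 (SE 0.25, adjusted p = 0.00859). Ucp2, an uncoupling protein of the inner membrane, had a log2 change of 2.32 (SE 0.29, adjusted p = 0.00866) and Vdac1, the outer membrane channel, 1.86 (SE 0.28, adjusted p = 0.00971). All 3 also rose in LOVA against PTC, with log2 fold changes of 2.02, 1.91 and 1.83. Of 13 tested genes of coenzyme Q synthesis 1 rose in NTC, Coq10a with a log2 change of 1.01 (SE 0.26, adjusted p = 0.0284). In LOVA against PTC 1 fell, beside 10.8% of all tested genes. This was Coq8a, with a log2 change of -1.13 (SE 0.31, adjusted p = 0.03598). Coenzyme Q has an isoprenoid tail made downstream of the enzyme that lovastatin inhibits. Between LOVA and NTC 0 of these 13 genes were called, with a median of -0.15.

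Lists for mitochondrial gene expression and the tricarboxylic acid cycle had lower medians. Of 14 genes of mitochondrial transcription and biogenesis 0 rose and 2 fell in NTC (median -0.58), a share lower that is near the 12.9% of all tested genes. These were Pprc1, a coactivator of respiratory genes, at 409 and 387 CPM in PTC, 205 and 169 in NTC, and 244 and 149 in LOVA, with a log2 change of -1.09 (SE 0.25, adjusted p = 0.0213), and Polg, the mitochondrial DNA polymerase (log2 fold change -0.84, SE 0.19, adjusted p = 0.0209). In LOVA against PTC 3 fell, beside 10.8% of all tested genes. Ppargc1b had a log2 change of -1.39 (SE 0.43, adjusted p = 0.0484) and Pprc1 of -1.02 (SE 0.25, adjusted p = 0.0284). Twnk, the mitochondrial DNA helicase, had -0.93 (SE 0.29, adjusted p = 0.0489). In the tricarboxylic acid cycle 1 gene rose and 3 fell of 16 in NTC, beside 21.5% and 12.9% of all tested genes. Among those that fell was Cs, citrate synthase, with a log2 change of -0.56 (SE 0.16, adjusted p = 0.0389). The gene that rose was Sucla2, with a log2 change of 0.64 (SE 0.19, adjusted p = 0.0374). Of 78 genes of the mitochondrial ribosome 7 rose and 4 fell in NTC against PTC (median -0.17), and 54 had a negative value. In LOVA against PTC 2 rose and 6 fell (median -0.39), beside 19.8% and 10.8% of all tested genes. In both comparisons the shares called among ribosome genes were smaller than those of all tested genes. In NTC against PTC the called genes with the largest fold changes were Mrps28 (log2 fold change 1.32), Mrpl33 (1.28) and Mrpl53 (1.17). In LOVA against NTC 0 genes of any of these lists were called.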

How the data were processed

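The values are raw counts per Ensembl gene as the authors deposited them, whole numbers with no normalization, for 6 libraries in 3 groups. The submitters' processing notes name Trimmomatic, Bowtie2, RSEM, DESeq2 and the build mm10, with no roles or versions, so counts made by RSEM would be estimates rounded before deposit. The libraries were made with a strand-specific kit and read as paired ends, per the labels' protocols, and whether the counting used strand is not stated. Of the members, 6 share exon bases with a gene of the same strand, among them Ndufb9. Another 25 overlaps are with genes of the other strand, among them those of Cox4i1, Atp5a1 and Uqcrb. Besides Atp5k and Atp5l, Uqcrh and Atp5c1 also have named pseudogenes.

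GENCODE M21 matched 31363 gene identifiers and left 21 unmatched. Genes were kept by filterByExpr, scaled by TMM and fitted over all 6 libraries with edgeR 4.0.16 (quasi-likelihood test, robust), with 3 residual degrees of freedom and a common biological coefficient of variation of 0.260. Adjusted p is Benjamini-Hochberg over 16121 genes, called under 0.05. The fit was also run on simulated counts as a check of the code, and no result here rests on it. Total counts of 12454671 to 22668087 put a floor of 3 counts at 0.128 to 0.258 CPM. PCR copies were not marked, so intervals of shares and floors cover only the error of counting. Alternatives were RLE factors, scaling to pan-germ-cell counts, no filter, DESeq2 1.42.0, limma-voom 3.58.1, a fit without robust estimation, a fit of 4 libraries, a replicate block and leaving out each library. Computations ran in R 4.3.3.

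Named with values are the called members with the largest fold change, up to 3 per complex and comparison, the 2 most abundant per kb in each complex, the tissue isoforms, members called against their complex's median, the smallest p where none is called, and up to 3 genes per other list. Ndufv2, Ndufs1, Uqcrc1, Atp5c1, Atp5d, Atp5e and the other called members were named beyond that rule, after their values were seen. The members and lists were chosen with earlier results of these data known.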

Additional observations from a re-analysis of the deposited data

How the results depend on the processing

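Over 14 other settings, the medians kept their size in most, while the counts of called members did not. Scaled to pan-germ-cell counts, NTC against PTC had 56 members higher and 0 lower with a median of 1.25, and LOVA against PTC had 25 higher and 0 lower with a median of 1.01. All genes then had medians of 1.04 and 0.99. A near-constant rise of all genes by its construction turns negative values that are smaller in size than the rise. In NTC against PTC 26 of 27 negative members turned positive, and in LOVA against PTC 32 of 34. Among these were Atp5b in LOVA against PTC (0.38) and, in NTC against PTC, Cox4i1 (0.82), Cox6a1 (0.92), Cox8c (0.43) and Atp5g1 (0.76). Cox7a1 (0.078) and Cox7b2 (0.10) also turned in NTC against PTC but ended close to 0. In NTC against PTC the count of lower members was 3 with no filter, 2 with DESeq2, 4 with limma-voom and 6 with the 4 libraries alone. In LOVA against PTC it was 5 with RLE factors, 6 with no filter, 5 with DESeq2 and 5 with limma-voom. The cause of these changes between tools and filters was not tested.

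Leaving out 1 library at a time gave 0 to 21 members higher and 0 to 6 lower in NTC against PTC, and 0 to 6 higher and 0 to 14 lower in LOVA against PTC. In LOVA against NTC it gave 0 calls each time, with medians from -0.26 to -0.06. A group left with 1 library is assumed to vary like the others.

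The column letters are in no label, so they do not pair the libraries by design. A replicate block by letter called 23 members higher and 7 lower in NTC against PTC, 8 higher and 9 lower in LOVA against PTC, and 0 in LOVA against NTC. The A minus B differences correlated between groups at 0.31, 0.35 and 0.48 across 16121 genes.

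With 2 libraries a group, calls rest on spread shared by all 6. Genes near the floor, such as Cox4i2, cannot be compared at this depth.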
